A study of Mus musculus with 9 samples.

Results

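The core autophagy machinery was followed at the RNA level in cultured mouse hepatic stellate cells, liver cells that store vitamin A and make collagen once activated. Its members were the rows whose gene symbol belongs to the ATG, ULK, WIPI, ATG8 (Map1lc3 and Gabarap) or Beclin families or is Ambra1, Uvrag, Rubcn, Pik3c3, Pik3r4, Rb1cc1, Vmp1, Stx17, Epg5, or a Wdr45 or Tecpr gene. The symbol alone chose them, with no expression value, though this choice was made with earlier results of these data known. The table held 42 such genes among 14020, and 32 of the 42 passed the filter on low values (a normalized count of at least 10 in at least 3 libraries), as did 10118 genes in all.

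The 9 libraries came from stellate cells cultured for 4 days under basal conditions, 3 from wild type (WT), 3 from a knock-out of Sqstm1 (Sqstm1 KO) and 3 from a double knock-out of Nbr1 and Sqstm1 (DKO). Sqstm1 encodes the autophagy receptor p62, and Nbr1 encodes a related receptor. All 6 knock-out libraries thus carry the Sqstm1 deletion by label, and the comparison of DKO with Sqstm1 KO is the one in which Nbr1 is the labelled difference. The sources used here do not give the kind of allele, the driver of any deletion, the strain, or the age and sex of the mice. Nothing in the labels ties a replicate to its own animal or culture, so p-values measure only the spread between these libraries, which may be technical.

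Autophagy encloses cytoplasm in a double membrane and delivers it to the lysosome. A kinase complex built around ULK1 starts the process, a phosphatidylinositol 3-kinase marks the membrane, and ATG9 vesicles and lipid transfer proteins let it grow. A conjugation system related to that of ubiquitin then attaches the small ATG8 proteins to the membrane, where receptors such as p62 and NBR1 bind them together with their cargo. In stellate cells autophagy is known for the breakdown of lipid droplets during activation.

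Values are given as normalized counts, that is, gene reads after the authors' scaling of each library by its size factor. They are bulk values, in which fewer cells of a type and less RNA per cell cannot be told apart. The libraries held 819677 to 1467793 counted reads, so that 27 of the 42 genes had fewer than 10 reads in at least 1 library and 3 had no read in at least 1. Sqstm1 KO replicate 3 stood apart. It was the highest of the 9 libraries for 10 of the 42 genes and the lowest for another 10, with 24.3% and 22.7% for the same counts over all tested genes. Sqstm1 itself averaged 240.4 ± 16.1 over WT, 52.8 ± 29.8 over Sqstm1 KO and 45.7 ± 17.7 over DKO (SD, n = 3 each), with log2 fold changes against WT of -2.30 (SE 0.38, limma adjusted p = 0.0023) and -2.45 (SE 0.38, limma adjusted p = 0.00116). Between the knock-out groups it was -0.15 (SE 0.38, adjusted p = 0.866). Mrnip is annotated on the opposite strand and overlaps Sqstm1 exons, and the strand setting is not known. The part of Mrnip reads in these values was not tested. Nbr1 was at 101 ± 7.64, 78.9 ± 8.85 and 90.7 ± 17.5, and was not called in DKO against WT (log2 fold change -0.17, SE 0.24, limma adjusted p = 0.735) or against Sqstm1 KO (0.19, SE 0.24, adjusted p = 0.722), nor in Sqstm1 KO against WT (-0.36, SE 0.24, adjusted p = 0.452). The loss of Nbr1 was therefore not seen in these values, and directions in DKO rest on its label. All 10 markers listed for activated stellate cells had reads, with sums of 2066 to 2173 in WT, 6017 to 6714 in Sqstm1 KO and 4764 to 6867 in DKO. Col1a1 and Col1a2 had the highest means in both knock-out groups (1810 and 2110 in Sqstm1 KO, 1864 and 1733 in DKO). Against WT, 9 of the 10 had a log2 fold change above 0 in Sqstm1 KO and 8 in DKO. Lox was lower in both (269 in WT, 155.5 in Sqstm1 KO, 209 in DKO), and Vim in DKO (364 in WT, 230 in DKO). None of the 6 hepatocyte or 5 lymphocyte markers had a row in the table. The part of the difference in activated markers in any result on the autophagy genes was not tested. Of the 10 markers of quiescent stellate cells 5 had a row, among them Dcn and Pdgfrb, while the defining genes Lrat, Reln, Des and Rgs5 had none. The 4 Y-linked genes had summed normalized counts of 176 to 177 in WT, 0 in all Sqstm1 KO libraries and 76.5 to 112 in DKO, so a difference between the sexes cannot be told apart from one between genotypes.

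Within the autophagy genes, RNA of Rb1cc1 was lower in DKO than in both other groups, and RNA of Pik3c3 was higher in DKO than in Sqstm1 KO. These were the only members that passed the test in any of the 3 comparisons. In Sqstm1 KO against WT, limma called 0 of 32 tested members (edgeR 0, DESeq2 0), and Atg12 alone reached an unadjusted p under 0.05. Of all tested genes limma called 5.61% there, 2.43% as higher and 3.18% as lower. In DKO against Sqstm1 KO, 1 member rose and 1 fell, beside 5.93% of all tested genes called, 4.42% higher and 1.51% lower. In DKO against WT, no member rose and 1 fell, beside 6.42% of all tested genes called, 4.11% higher and 2.31% lower. An unadjusted p under 0.05 was reached by 1, 3 and 3 members in these comparisons, and by 19.4%, 18.8% and 21.4% of all tested genes. As shares of the 32 genes these counts (0, 6.25% and 3.12%) are near or below the background. The 3 comparisons share their groups in pairs and are not independent.

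**Figure D1:**
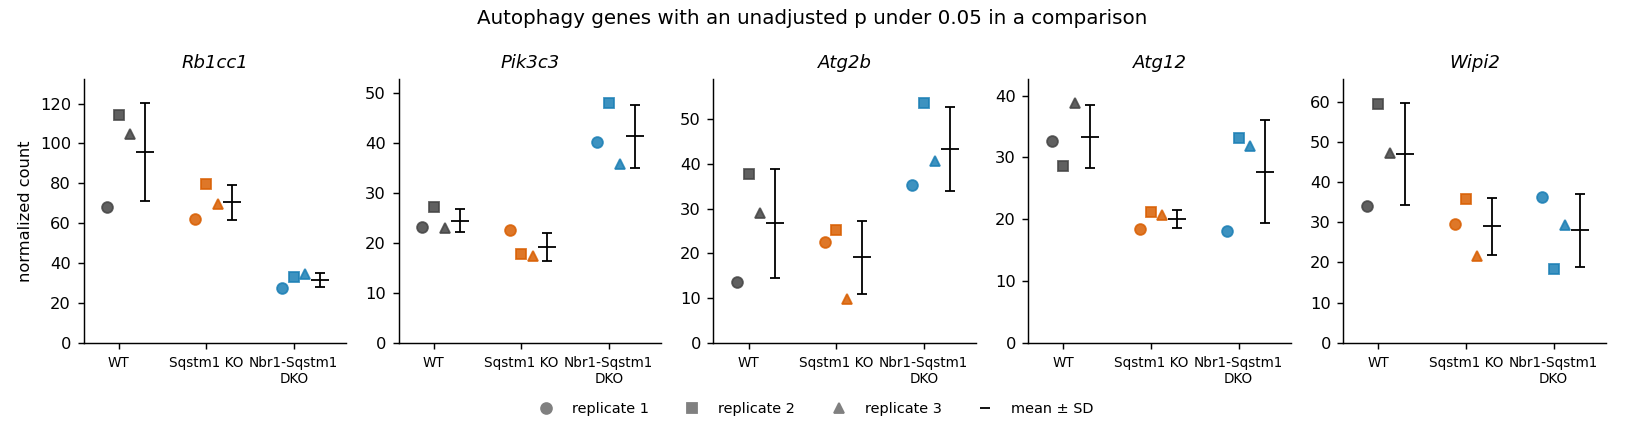
Normalized counts (y axis, linear, from 0) of the 5 autophagy genes with an unadjusted p under 0.05 in at least 1 comparison, by genotype. Each symbol is 1 library and the bar is the mean ± SD of 3; all 3 DKO libraries lie below the other 6 for Rb1cc1 and above them for Pik3c3.

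Rb1cc1 encodes FIP200, the large scaffold of the ULK1 kinase complex. Its normalized counts were 68.1, 114.5 and 104.9 in WT, 62.3, 79.5 and 69.4 in Sqstm1 KO, and 27.7, 33.1 and 34.4 in DKO. Every DKO library was below every other library, while WT and Sqstm1 KO overlapped. The fall in DKO against WT had a log2 fold change of -1.54 (SE 0.27, adjusted p = 0.00345 by limma; edgeR 0.00215, DESeq2 6.65e-05), and it stayed under the threshold in each of the 19 alternative fits, with a highest adjusted p of 0.0381. Against Sqstm1 KO the log2 fold change was -1.12 (SE 0.27, limma adjusted p = 0.0256; edgeR 0.0275, DESeq2 0.0129). That call was lost without Sqstm1 KO replicate 2 (adjusted p = 0.0861), without DKO replicates 1, 2 or 3 (0.105, 0.0579 and 0.0834), on CPM of the recovered reads (0.112) and in a fit of only the 6 libraries (0.0699), with log2 fold changes between -1.21 and -1.03 when a library was left out. Between Sqstm1 KO and WT the log2 fold change was -0.41 (SE 0.27, adjusted p = 0.445). These values rested on 27 to 29 reads per DKO library and on 50 to 173 in the others. An annotated antisense RNA, 4732440D04Rik, overlaps 558 bases of Rb1cc1 exons on the opposite strand and was not analysed here.

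The other members of the ULK1 complex did not follow Rb1cc1 past the test. The kinase genes Ulk1 and Ulk2 averaged 8.57 and 19.9 in WT, 7.20 and 15.6 in Sqstm1 KO, and 10.7 and 19.3 in DKO. Atg13, which encodes the regulatory subunit that mTORC1 controls, stood at 12.3, 12.1 and 23.0 in WT, 20.4, 15.4 and 5.42 in Sqstm1 KO, and 19.1, 22.8 and 20.4 in DKO. Atg101, whose product stabilizes ATG13, averaged 8.92, 7.56 and 9.10. All groups overlapped for these 4 genes. In DKO against Sqstm1 KO their log2 fold changes were positive, from 0.28 to 0.90, with adjusted p between 0.419 and 0.779, while that of Rb1cc1 was negative. Sqstm1 KO replicate 3 was the lowest library for Ulk1 (1.09), Ulk2 (5.42) and Atg13 (5.42). In DKO against WT the log2 fold changes were 0.25 for Ulk1, -0.10 for Ulk2, 0.43 for Atg13 and 0.04 for Atg101. Their limma adjusted p there lay between 0.636 and 0.973. The difference between Rb1cc1 and its partners was not tested.

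Pik3c3 encodes VPS34, the catalytic subunit of the class III phosphatidylinositol 3-kinase. Its normalized counts were 23.2, 27.1 and 23.0 in WT, 22.5, 17.9 and 17.4 in Sqstm1 KO, and 40.2, 47.9 and 35.7 in DKO. The DKO libraries were above all others, and the Sqstm1 KO libraries below all others. Pik3c3 rose in DKO against Sqstm1 KO with a log2 fold change of 1.06 (SE 0.29, limma adjusted p = 0.0487; edgeR 0.045, DESeq2 0.0482). The call lay just under the threshold and was lost without any single library: the adjusted p was 0.0648, 0.0894 and 0.0786 without WT replicates 1, 2 and 3, 0.0673, 0.115 and 0.0625 without those of Sqstm1 KO, and 0.116, 0.13 and 0.103 without those of DKO. The log2 fold change stayed between 0.95 and 1.17 in these 9 fits. The call was lost in 15 of 18 alternative fits in all, over which the lowest log2 fold change was 0.93. Against WT the log2 fold change of 0.73 did not pass (SE 0.29, 95% interval 0.10 to 1.36, adjusted p = 0.166), and between Sqstm1 KO and WT it was -0.34 (SE 0.29, adjusted p = 0.574). Pik3c3 had 16 to 42 reads per library. The only tested macrophage marker, Cd14, was also higher in DKO than in Sqstm1 KO (11.1 ± 5.90 against 1.29 ± 1.59). Summed over the 4 macrophage markers with a row, of 8 listed, the level was 20.3 to 35.4 in WT, 8.68 to 12.3 in Sqstm1 KO and 14.3 to 29.3 in DKO, and Adgre1, Clec4f, Lyz2 and Ptprc had no row. The portal fibroblast marker Igfbp6 was also higher in DKO (11.6 ± 3.65 against 2.30 ± 2.44). Fbln2, the other tested marker of that list, was not, at 297 ± 2.29 in DKO and 338 ± 101 in Sqstm1 KO. The sum over the 3 portal fibroblast markers with a row was 231 to 432 in Sqstm1 KO and 310.5 to 316 in DKO. The part of these markers in the result was not tested.

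The subunits and regulators that work with VPS34 were not called. Becn1, which encodes the scaffold Beclin 1, had the highest mean of this complex, with 47.7, 37.7 and 50.9 in WT, 28.6, 43.0 and 45.6 in Sqstm1 KO, and 56.4, 36.5 and 43.3 in DKO. All groups overlapped, and the log2 fold changes were -0.23 (SE 0.30, adjusted p = 0.721) in Sqstm1 KO against WT, 0.22 (adjusted p = 0.734) in DKO against Sqstm1 KO and -0.01 (adjusted p = 0.987) in DKO against WT. Cntd1 shares 3104 exonic bases with Becn1 on the opposite strand and had a mean of 944 against 43.3 for Becn1, and without a known strand setting reads of these genes cannot be told apart. Pik3r4, the regulatory kinase subunit VPS15, averaged 8.86 ± 4.77 in WT, 10.6 ± 6.02 in Sqstm1 KO and 16.2 ± 3.15 in DKO (SD, n = 3). Uvrag, which directs the complex to endosomes, averaged 29.5 ± 4.07, 22.5 ± 1.96 and 18.7 ± 2.16, and its WT libraries lay above the other 6, with an adjusted p of 0.544 in Sqstm1 KO and 0.248 in DKO. Rubcn, the inhibitor Rubicon, averaged 13.1, 8.45 and 7.08. Ambra1 and Atg14 stayed below the filter, at means over all libraries of 8.17 and 4.94.

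Among the genes for membrane supply, Atg2b came closest to the threshold. It encodes a protein that channels lipids from the endoplasmic reticulum into the growing membrane. Its values were 13.6, 37.7 and 29.1 in WT, 22.5, 25.2 and 9.76 in Sqstm1 KO, and 35.4, 53.7 and 40.8 in DKO. The DKO libraries were above those of Sqstm1 KO and overlapped those of WT. The log2 fold change of DKO against Sqstm1 KO was 1.22 (SE 0.43, unadjusted p = 0.0129, limma adjusted p = 0.13), or 0.82 without Sqstm1 KO replicate 3. It was -0.46 in Sqstm1 KO against WT (SE 0.43, adjusted p = 0.605) and 0.76 in DKO against WT (SE 0.43, adjusted p = 0.326). Its paralog Atg2a averaged 8.57, 5.74 and 6.30. It had 0 reads in WT replicate 1, and its log2 fold changes against WT were above 0 although the means fell. They were 0.24 in Sqstm1 KO and 0.17 in DKO (SE 0.87 each, limma adjusted p = 0.913 and 0.932).

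Wipi2 encodes a reader of the lipid made by VPS34 that recruits the conjugation machinery. It stood at 34.0, 59.5 and 47.3 in WT, 29.6, 35.7 and 21.7 in Sqstm1 KO, and 36.3, 18.3 and 29.3 in DKO. Both knock-out groups averaged below WT but overlapped it. In DKO against WT the log2 fold change was -0.74 (SE 0.34, unadjusted p = 0.0486, limma adjusted p = 0.23), in Sqstm1 KO it was -0.67 (SE 0.34, adjusted p = 0.309), and between the knock-out groups it was -0.08 (SE 0.34, adjusted p = 0.933). Vmp1, a scramblase of the endoplasmic reticulum, had the highest mean of the membrane genes and spread widely, with 47.7, 70.8 and 86.7 in WT, 56.1, 47.1 and 95.4 in Sqstm1 KO, and 38.2, 116 and 80.2 in DKO. Its log2 fold changes were -0.07, 0.17 and 0.10 in Sqstm1 KO against WT, DKO against Sqstm1 KO and DKO against WT, each with an SE of 0.40 and with adjusted p of 0.949, 0.859 and 0.917. Wdr45b, a reader of the same lipid, averaged 26.6, 19.9 and 15.9. Atg9a, Atg9b, Wipi1 and Wdr45 did not pass the filter. Of these, Wdr45 was at 1.36, 3.77 and 4.24 in WT, 12.3, 7.30 and 6.51 in Sqstm1 KO and 7.65, 6.85 and 10.2 in DKO, from 1 to 12 reads per library, and it had no test.

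**Figure D2:**
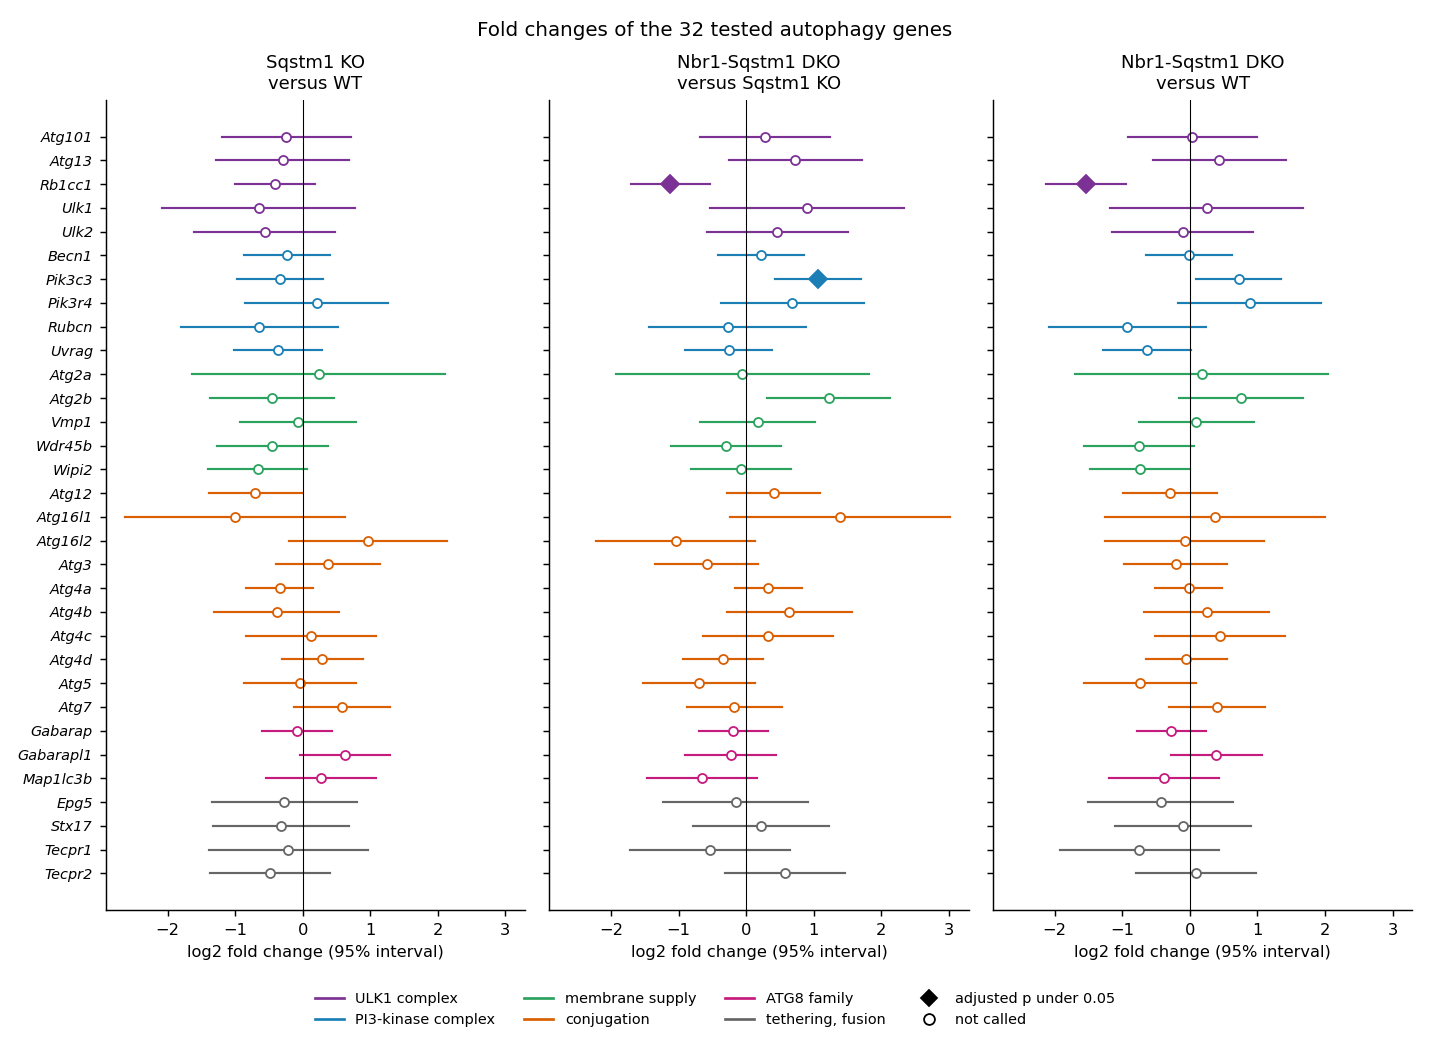
Log2 fold changes (x axis) of the 32 tested autophagy genes (y axis, ordered and coloured by role) in the 3 comparisons. Points are estimates, lines are 95% intervals and filled diamonds mark an adjusted p under 0.05, which only Rb1cc1 and Pik3c3 reached; most other intervals cover 0.

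Per kilobase of annotated exon, the conjugation genes Atg7, Atg4a and Atg4d and the ATG8 gene Gabarap were the 4 highest members in each group. Their means over all libraries were 55.0, 49.1, 37.2 and 50.01 normalized counts per kilobase, with a median of 2.56 over the 42 genes. The length merged the exons of all annotated transcripts of a gene. Whether reads covered whole transcripts is not known here, so ranks of other members may depend on this scaling. Unscaled, the same 4 genes also had the highest means over all libraries (383.5, 130.7, 270.4 and 92.2). The order at the top was not fixed. In WT Gabarap (54.1) and Atg4a (53.1) were above Atg7 (41.8), while Atg7 was highest in Sqstm1 KO (67.2) and DKO (56.1). Without Sqstm1 KO replicate 3, a check chosen after seeing the data, Atg4a (50.6), Gabarap (48.8) and Atg7 (48.7) had nearly the same mean. Without scaling to length, Atg7, Atg4d and Atg4a made up 49.3% of the summed value of the 42. Atg7 encodes the E1-like enzyme of both conjugation branches, and Atg4a and Atg4d encode proteases that trim and recycle ATG8 proteins. Kri1 overlaps 1405 bases of Atg4d exons on the opposite strand and had a mean of 121. No such partner was annotated for Atg7 or Atg4a.

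Atg7 stood at 340.5, 273 and 260.1 in WT, 360.4, 305 and 739 in Sqstm1 KO, and 286, 420.1 and 467 in DKO. The value of 739 in Sqstm1 KO replicate 3 was the highest of any member in any library, and the groups overlapped. The log2 fold change of Sqstm1 KO against WT was 0.58 (SE 0.33, adjusted p = 0.364), or 0.20 without that library. In DKO it was 0.40 (SE 0.33, adjusted p = 0.522) against WT and -0.18 (SE 0.33, adjusted p = 0.813) against Sqstm1 KO. Atg4d behaved alike in that library, with 442 against 282 and 229 in the others of its group and 229 to 296 in WT. Atg16l2 did too, at 56.4 against 21.4 and 9.74. Atg4a varied little, with 157, 147 and 121 in WT, 128, 107 and 99.8 in Sqstm1 KO, and 139.6, 140.4 and 138 in DKO. Its DKO libraries lay above those of Sqstm1 KO, where 21% of all tested genes had groups apart, and the log2 fold change was 0.33 (SE 0.23, adjusted p = 0.476). After Gabarap, Atg4a had the smallest coefficient of variation over the 9 libraries of all 42 genes, 14.3%.

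Atg12 encodes the ubiquitin-like protein that is joined to ATG5. It stood at 32.7, 28.6 and 38.8 in WT, 18.4, 21.1 and 20.6 in Sqstm1 KO, and 18.2, 33.1 and 31.8 in DKO. Every Sqstm1 KO library was below every WT library, a separation that 26% of all tested genes showed in one direction or the other, and DKO overlapped both. The log2 fold change of Atg12 in Sqstm1 KO against WT was -0.70 (SE 0.32, unadjusted p = 0.0475, limma adjusted p = 0.25), in DKO against Sqstm1 KO 0.40 (SE 0.32, adjusted p = 0.53) and in DKO against WT -0.30 (SE 0.32, adjusted p = 0.647). Its conjugation partner Atg5 averaged 17.2 ± 1.96 in WT, 17.2 ± 5.38 in Sqstm1 KO and 10.1 ± 2.89 in DKO (SD, n = 3), where the DKO libraries lay below those of WT (adjusted p = 0.292). Atg3, the E2-like enzyme that hands ATG8 proteins to the membrane lipid, averaged 42.9, 56.7 and 38.5. Atg16l1, which places the conjugate on the membrane, was at 0 in Sqstm1 KO replicate 3 and averaged 9.12, 6.78 and 11.9. Atg4b and Atg4c averaged 12.1 and 20.4 in WT, 9.44 and 25.6 in Sqstm1 KO, and 14.5 and 28.5 in DKO. Atg10, the E2-like enzyme for ATG12, had at most 5 reads in a library.

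The sequences before the gene starts were searched for 2 short motifs of factors known to act on autophagy genes. These were CACGTG, the core bound by TFEB and its relatives, with its longer form TCACGTGA, and GTAAACA, a core bound by FOXO factors. The window was the 250 bases before the first listed start of each gene on both strands, from RefSeq on GRCm38.p6, an earlier build than the one the authors used. Of the 42 genes 34 had an entry. CACGTG was present in 4 of them (11.8%), Atg3, Atg5, Atg7 and Rubcn, and in 6.05% of 27025 promoters. TCACGTGA, which contains CACGTG, was present in Atg3 alone (2.94%) and in 0.803% of promoters. GTAAACA was in 0 of the 34 and in 3.09% of promoters. Rb1cc1 and Pik3c3, the only members called in a comparison, had no entry and were not searched. Whether called members carry a motif could therefore not be seen here. The matches describe letters, not binding. The Atg3 window is shown because it held the longer form, and that of Atg7 because it is one of the 4 members highest per kilobase. Capitals mark CACGTG, the sequences run 5′ to 3′ on the strand of the gene, and both genes lie on the plus strand, at chr16:45158579-45158828 and chr6:114670846-114671095.
Atg3: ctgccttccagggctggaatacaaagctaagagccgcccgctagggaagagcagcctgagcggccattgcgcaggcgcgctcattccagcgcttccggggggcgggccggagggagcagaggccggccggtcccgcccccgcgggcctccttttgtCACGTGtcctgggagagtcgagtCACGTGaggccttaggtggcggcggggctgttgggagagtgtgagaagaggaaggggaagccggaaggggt
Atg7: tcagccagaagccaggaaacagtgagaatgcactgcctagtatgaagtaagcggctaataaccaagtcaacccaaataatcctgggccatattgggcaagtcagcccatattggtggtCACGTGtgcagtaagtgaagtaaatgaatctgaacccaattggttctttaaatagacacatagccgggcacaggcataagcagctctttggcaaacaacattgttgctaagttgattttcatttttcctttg

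The ATG8 family is the layer at which p62 and NBR1 meet the autophagosome. Gabarap was the steadiest of the 42 genes, with a coefficient of variation of 13.1% over the 9 libraries. It stood at 98.1, 92.7 and 109 in WT, 92.9, 80.3 and 111 in Sqstm1 KO, and 75.5, 82.2 and 89.1 in DKO. The DKO libraries lay below those of WT, where 31.2% of all tested genes had groups apart in one direction or the other, with a log2 fold change of -0.27 (SE 0.24, 95% interval -0.79 to 0.24, adjusted p = 0.552). In Sqstm1 KO against WT it was -0.08 (95% interval -0.60 to 0.43, adjusted p = 0.88), and in DKO against Sqstm1 KO -0.19 (95% interval -0.70 to 0.32, adjusted p = 0.711).

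Gabarapl1 was at 16.3, 27.9 and 27.9 in WT, 36.8, 33.3 and 40.1 in Sqstm1 KO, and 34.4, 25.1 and 34.4 in DKO. Sqstm1 KO lay above WT without overlap, and the log2 fold change of 0.63 did not pass the test (SE 0.31, 95% interval -0.04 to 1.30, limma adjusted p = 0.293). In DKO it was 0.39 against WT (SE 0.31, adjusted p = 0.508) and -0.23 against Sqstm1 KO (SE 0.31, adjusted p = 0.73). The transcript 1700101I11Rik overlaps 570 bases of its exons on the opposite strand and had a like level, with a mean of 34.0 against 30.7. Map1lc3b, whose product LC3B is the usual marker of autophagosomes, was at 32.7, 36.2 and 23.6 in WT, 33.7, 27.6 and 54.2 in Sqstm1 KO, and 13.4, 29.7 and 30.6 in DKO. Its groups overlapped, and its log2 fold changes were 0.28 in Sqstm1 KO against WT (SE 0.38, adjusted p = 0.739), -0.66 in DKO against Sqstm1 KO (SE 0.38, adjusted p = 0.378) and -0.38 in DKO against WT (SE 0.38, adjusted p = 0.614). Map1lc3a, at 4.57 to 13.4, and Gabarapl2, at 0.812 to 4.08, were below the filter. RNA levels say nothing of the lipidated ATG8 forms by which autophagy is usually measured.

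**Figure D3:**
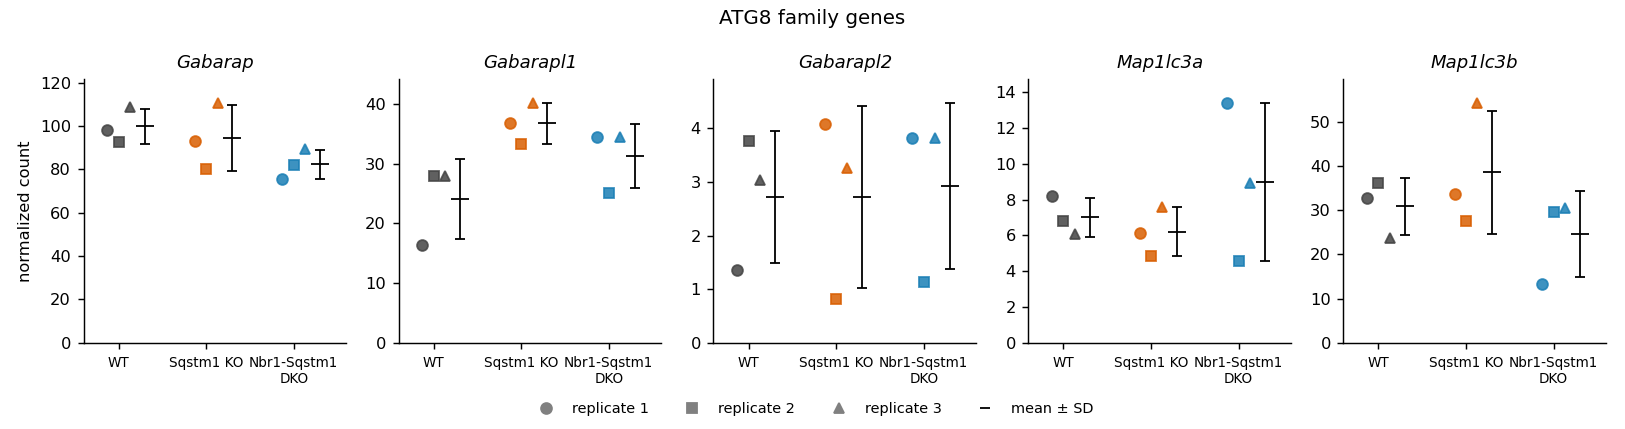
Normalized counts (y axis, linear, from 0) of the 5 ATG8 family genes by genotype, with 1 symbol per library and bars for the mean ± SD of 3. Gabarap lies between 75.5 and 111 in all 9 libraries, and Gabarapl1 is higher in the 3 Sqstm1 KO libraries than in WT.

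Genes that tether autophagosomes and fuse them with lysosomes were low and not called. Stx17, the syntaxin of the finished autophagosome, had the highest mean among them, with 12.3, 16.6 and 18.2 in WT, 11.2, 21.1 and 7.59 in Sqstm1 KO, and 7.65, 22.8 and 16.6 in DKO. Its log2 fold changes were -0.32, 0.21 and -0.10 in Sqstm1 KO against WT, DKO against Sqstm1 KO and DKO against WT (SE 0.47 each), with adjusted p of 0.76, 0.846 and 0.927. The tether Epg5 averaged 12.9, 11.8 and 9.39, Tecpr1 14.1, 12.4 and 10.3, and Tecpr2 11.4, 8.27 and 12.4. Ulk3, a kinase of the ULK family outside the ULK1 complex, had 1 to 9 reads per library. The 10 genes below the filter had means of 2.51 to 8.37 over all libraries.

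Read as one set, the 32 tested genes had a median log2 fold change of -0.28 in Sqstm1 KO against WT, beside -0.01 over all tested genes. Of the 32, 23 were below 0 (71.9%), beside 51% of all tested genes. All 5 genes of the ULK1 complex and all 4 tethering genes were among them, while the 10 tested conjugation genes split into 5 and 5. Sqstm1 KO replicate 3 was the lowest of the 9 libraries for Ulk1, Ulk2, Atg13, Epg5 and Stx17 (1.09, 5.42, 5.42, 4.34 and 7.59). The log2 fold change of Stx17 reached -0.0029 when a library was left out. The split by role was not counted again without replicate 3. Leaving out Sqstm1 KO replicate 3 gave a median of -0.13, with 18 of 32 below 0. On CPM, which moved the median of all genes to -0.21, the median of the 32 was -0.45. In DKO the medians were 0.05 against Sqstm1 KO and -0.03 against WT, beside -0.01 and -0.02 over all tested genes, and with quantile normalization the first was -0.01. The groups of a comparison did not overlap for 4, 4 and 5 of the 32 genes (12.5%, 12.5% and 15.6%) in Sqstm1 KO against WT, DKO against Sqstm1 KO and DKO against WT, beside 26%, 21% and 31.2% of all tested genes. The median coefficient of variation of the 32 over the 9 libraries was 36.2%.

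**Figure D4:**
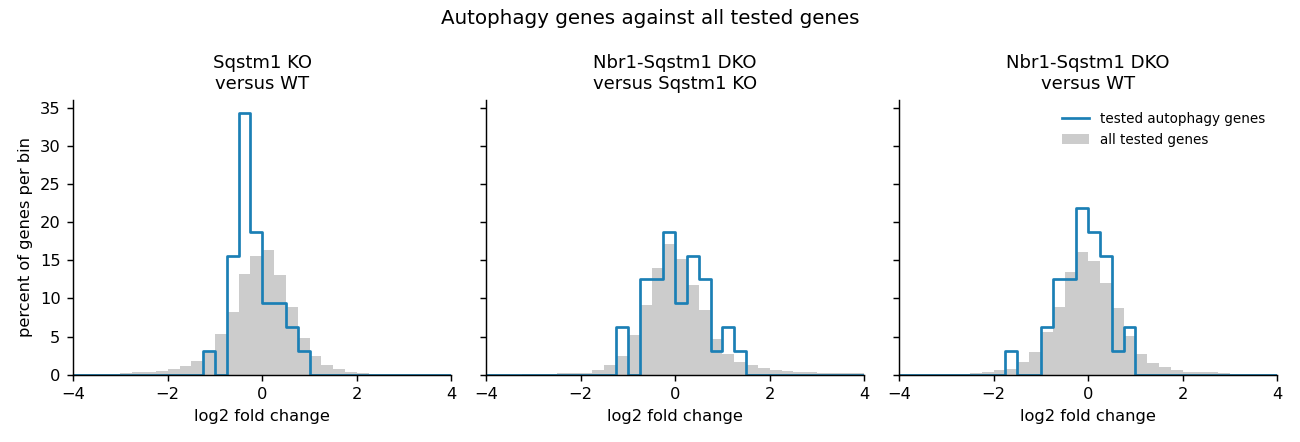
Distribution of log2 fold changes (x axis, bins of 0.25) in the 3 comparisons, as percent of genes per bin (y axis), for all 10118 tested genes (grey bars) and the 32 tested autophagy genes (blue line). In Sqstm1 KO against WT 23 of the 32 genes lie below 0, and in DKO against Sqstm1 KO 16 do.

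Genes around the core machinery were taken from 4 lists. Of all tested genes limma called 5.61%, 5.93% and 6.42% in Sqstm1 KO against WT, DKO against Sqstm1 KO and DKO against WT. An unadjusted p under 0.05 was reached by 19.4%, 18.8% and 21.4% of them. Of 28 upstream regulators such as mTORC1, AMPK and Rag GTPase genes 23 were tested. None was called by limma in any comparison, with 4, 5 and 4 at an unadjusted p under 0.05 in Sqstm1 KO against WT, DKO against Sqstm1 KO and DKO against WT, and edgeR and DESeq2 called 1 in the first of these and 0 in the others. Of 24 accessory factors 20 were tested, and 0, 1 and 1 were called in the same order (edgeR and DESeq2 1, 1 and 1; unadjusted p under 0.05 in 1, 3 and 3). Of 10 transcription factors of autophagy genes 6 were tested, with 1, 1 and 0 called (by all 3 tools; unadjusted p under 0.05 in 2, 2 and 0). Of 21 cargo receptors 17 were tested, and only Sqstm1 was called, against WT in both knock-out groups, with 0 receptors called between the knock-out groups by limma, edgeR or DESeq2. At an unadjusted p under 0.05 there were 5, 2 and 2 receptors in Sqstm1 KO against WT, DKO against Sqstm1 KO and DKO against WT, and the groups did not overlap for 11, 1 and 6 of the 17, beside the 26%, 21% and 31.2% of all tested genes given above. In the same order limma called 0, 5% and 5% of the tested accessory factors and 5.88%, 0 and 5.88% of the receptors. Of the 6 transcription factors it called 16.7%, 16.7% and 0.

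The transcription factor was Foxo3, an activator of autophagy genes in muscle. It stood at 24.5, 46.0 and 44.3 in WT, 9.19, 16.2 and 8.68 in Sqstm1 KO, and 39.2, 58.2 and 26.8 in DKO. The Sqstm1 KO libraries were below all others. Foxo3 fell in Sqstm1 KO against WT (log2 fold change -1.67, SE 0.39, adjusted p = 0.0217 by limma) and was higher in DKO than in Sqstm1 KO (log2 fold change 1.76, SE 0.39, adjusted p = 0.0141). The difference between DKO and WT was 0.09 on the log2 scale (SE 0.39, adjusted p = 0.916). The first call was lost without WT replicates 2 or 3 or Sqstm1 KO replicate 1 (adjusted p = 0.131, 0.11 and 0.0631), and the second without DKO replicates 1 or 2 (0.0537 and 0.0665). The macrophage marker Cd14 moved likewise, with a mean of 17.6 ± 3.73 for WT, 1.29 ± 1.59 for Sqstm1 KO and 11.1 ± 5.90 for DKO. So did Igfbp6, listed for portal fibroblasts, with a mean of 25.7 ± 5.59 for WT, 2.30 ± 2.44 for Sqstm1 KO and 11.6 ± 3.65 for DKO, although the sum over the 3 portal fibroblast markers with a row, of 6 listed, was 202 to 244 in WT, 231 to 432 in Sqstm1 KO and 310.5 to 316 in DKO. Entpd2, Msln and Upk3b had no row. The part of these markers in the result was not tested.

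Plekhm1 and Vamp8 were the accessory factors that limma called. Each was 5% of those tested in its comparison, where limma called 5.93% and 6.42% of all tested genes. Plekhm1, an adaptor that links Rab7, ATG8 proteins and the tethering complex, was at 23.2, 19.6 and 13.3 in WT, 34.7, 20.3 and 33.6 in Sqstm1 KO, and 3.83, 13.7 and 7.64 in DKO. It fell in DKO against Sqstm1 KO (log2 fold change -1.81, SE 0.44, adjusted p = 0.0265 by limma), a call lost without Sqstm1 KO replicate 1 or DKO replicates 1 or 3 (adjusted p = 0.0877, 0.11 and 0.0938) and in a fit of only the 6 libraries (0.0799). Its log2 fold change was 0.63 in Sqstm1 KO against WT (SE 0.44, adjusted p = 0.473) and -1.18 in DKO against WT (SE 0.44, adjusted p = 0.14). Arhgap27os1 is annotated on the opposite strand and overlaps Plekhm1 exons. Vamp8, the lysosomal partner of syntaxin 17, was at 31.3, 26.4 and 29.1 in WT, 57.2, 47.1 and 146 in Sqstm1 KO, and 93.7, 57.1 and 80.2 in DKO. All knock-out libraries were above WT. Vamp8 rose in DKO against WT (log2 fold change 1.36, SE 0.38, limma adjusted p = 0.046), a call lost without any 1 of the WT or DKO libraries (adjusted p between 0.0504 and 0.178) and with a pseudocount of 0.5 (0.0502). In Sqstm1 KO against WT its mean was 83.6 ± 54.7 against 28.9 ± 2.48, a log2 fold change of 1.32 (SE 0.38) that limma did not call (adjusted p = 0.0571) and edgeR and DESeq2 did (0.0247 and 0.01). In DKO against Sqstm1 KO it was 0.04 (SE 0.38, adjusted p = 0.972).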

How the data were processed

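RNA of 9 libraries of cultured mouse hepatic stellate cells was sequenced. Each deposited signal value is the number of reads of a gene after the authors divided it by the library's size factor. Per the submitters' processing notes, STAR and DESeq2 were among the tools and GRCm39 was the build, with no versions. The sources used here do not give the kit, counter, annotation or strand setting. All 121126 values above 0 were whole multiples of the library's smallest value (100%, tolerance 0.01), which gave the whole reads. Read totals are counted reads, not sequencing depth.

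The main test was limma (linear model, moderated variances with a trend on the mean) on log2(value + 1), over 9 libraries in 3 groups with no covariate, two-sided. It took the 10118 genes that reached 10 normalized counts in 3 or more libraries, with Benjamini-Hochberg adjustment over all of them and a threshold of 0.05. Fold changes are on that scale, where the added 1 shrinks changes of low genes. A library at or near 0 can instead enlarge a change or set its sign against the group means. This held for Atg2a in Sqstm1 KO against WT (means 5.74 and 8.57, log2 fold change 0.24). An exact permutation test of 3 against 3 cannot go below 0.1. The pipeline was checked on simulated counts, drawn with the same dispersion for all genes and no outlying library. That check therefore does not cover a library such as Sqstm1 KO replicate 3. edgeR and DESeq2 on the recovered reads, other filters, pseudocounts and scalings, fits of 6 libraries, a replicate block and leaving out each library were the alternatives. Members and lists were chosen with earlier results of these data known. The rule for named genes took members that were called, had an unadjusted p under 0.05, belong to the ATG8 family or had the highest mean of a role group, other genes of the lists that were called, and Sqstm1 and Nbr1. Of these Ulk3, Map1lc3a and Gabarapl2 were below the filter and have no test. Values of further members were picked after they were seen. Exon overlaps and exonic lengths came from GENCODE M21 on GRCm38, matched by symbol (42 of 42 members; 12351 genes, 88.1%), and 12 of the 42 had an overlap on the opposite strand. The fits used limma 3.58.1 and, for the recovered reads, DESeq2 1.42.0 and edgeR 4.0.16, all under R 4.3.3.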

Additional observations from a re-analysis of the deposited data

How the results depend on the processing

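The count of 0 autophagy genes called in Sqstm1 KO against WT and of 1 in DKO against WT held in all 19 alternatives, the latter gene being Rb1cc1 each time. In DKO against Sqstm1 KO the count of 2 was 1 with no filter, with a minimum value of 50, with a pseudocount of 0.5 and with quantile normalization, 0 on CPM and 0 in a fit of only the 6 libraries, and 0 to 1 when a library was left out. With a replicate block it was 1, since Pik3c3 had an adjusted p of 0.0595. Counts over all genes were 568, 600 and 650 in Sqstm1 KO against WT, DKO against Sqstm1 KO and DKO against WT. They were 290, 291 and 360 with a minimum value of 50, and 226 to 651, 243 to 764 and 251 to 1409 when a library was left out. A fit of only the 6 libraries gave 352 in the second and 1229 in the third. On CPM the share of calls that were higher in Sqstm1 KO against WT went from 43.3% to 29.5%. The cause of these moves was not tested. With that scaling the median of all genes shifted to -0.21, 0.07 and -0.14.

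Single fold changes were recomputed for 12 of the 32 tested members, and some near 0 changed sign when a library was left out. In Sqstm1 KO against WT this held for Vmp1 (-0.36 to 0.14) and Gabarap (-0.20 to 0.026). In DKO against Sqstm1 KO it held for Vmp1 (-0.19 to 0.60), Wipi2 (-0.28 to 0.19), Atg7 (-0.43 to 0.21) and Stx17 (-0.10 to 0.63). In DKO against WT it held for Becn1 (-0.18 to 0.13), Vmp1 (-0.26 to 0.53) and Stx17 (-0.42 to 0.31). In the last comparison Becn1 was also at 0.0075 with edgeR and 0.00999 with DESeq2, and Vmp1 at -0.026 on CPM. Pik3c3 and most members had no value in a fit with a minimum of 50, which left 6 members. Same-numbered libraries had correlations of deviations between -0.12 and 0.18, which do not settle whether they were paired. The labels state no pairing, so same-numbered libraries were not taken as pairs in the main test. As a hint from the data that they may share more than a number, 6 of 9 libraries correlated best with their own number. Low counts of reads limit the precision for most members.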
